A study of Homo sapiens with 6 samples.

Results

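Poly(A) site use was compared directly between HEK293 cells given siRNA against CF Im25 and HEK293 cells given siRNA against CF Im59. The comparison holds 2 of the 6 libraries of the series, chosen by their titles, with 1 library on each side and no control library in the contrast. HEK293 is a human embryonic kidney cell line. Both siRNAs were Ambion reagents (S224836 for CF Im25, S21772 for CF Im59), introduced with a lipid reagent, and the cells were harvested after 3 days. Both libraries were fragmented by alkaline hydrolysis. The other 4 libraries are given beside them: cells given no siRNA (called untreated here) and cells with the scrambled-A siRNA, both alkaline, and a pair broken with RNase I, which holds the scrambled-A siRNA and a Dharmacon duplex against CF Im68. The labels name no separate cultures, and each siRNA was a single reagent, so an effect of the target and an effect of the reagent cannot be told apart.

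CF Im is one of the complexes that assemble on nascent pre-mRNA before the 3' end is cut and the poly(A) tail is added. Its CF Im25 subunit, encoded by NUDT21, recognises UGUA elements upstream of cleavage sites, and it forms a complex with a larger partner, either CF Im59 (encoded by CPSF7) or CF Im68 (encoded by CPSF6). Many human transcripts can end at more than one poly(A) site, and the choice sets how much 3' UTR the mRNA carries. The direct comparison asks where siRNA against the subunit shared by all complexes changes site choice differently from siRNA against one of the alternative partners.

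A-seq counts the ends of poly(A) RNA. Its reverse transcription primer sits on the border between the transcript body and the tail, so that the base before the tail is the end of the read. The 3' adaptor that follows each insert is shown because it is the part of the read that marks this border, with the 6 bases of the tail in capitals.

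3' adaptor: AAAAAAtggaattctcgggtgccaagg

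The CF Im25 library held 10659900 reads and the CF Im59 library 12642699. Ends within 25 nt of a local maximum were joined into a site, neighbouring sites of one strand at most 5 kb apart were put in a unit, and in each unit the 2 most used sites form a locus. Reads at the upstream site, as a percentage of the reads at both, make the proximal share. Testing needed at least 50 reads at the locus in each library, and a call needed a gap of at least 20 percentage points with 0 outside its 95% Newcombe interval. With 1 library a side, no difference could be set against a spread between replicates. Intervals of the difference at a single locus, or of the ratio of a single unit, reflect read counting error alone. Intervals of percentages and medians are taken over the loci or units of these libraries as if they were independent, which they are not, and hold no spread between libraries. Annotation of the build of the files was not used here, so loci carry hg19 coordinates and no gene names. The transcripts of the siRNA targets were not looked up, so the loci and units named below may include them. The extent of each knockdown was not tested. A unit may hold ends of more than 1 gene, and ends of 1 gene may fall in more than 1 unit. Reads on the mitochondrial genome were 1.07% of the CF Im25 library and 1.54% of the CF Im59 library. Their part in the results was not tested.

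The upstream site was used more with CF Im25 siRNA than with CF Im59 siRNA. Of 7084 loci, 1348 (19.0%, exact binomial interval 18.1 to 20.0) had a proximal share at least 20 points higher with CF Im25 siRNA, and 77 (1.09%, interval 0.859 to 1.36) had one at least 20 points lower. The same rule between the untreated and the scrambled siRNA library, neither with a targeting siRNA, called 1.21% of 7177 loci proximal and 2.52% distal. Over the 7084 loci the CF Im25 library had a median share of 50.7% and the CF Im59 library one of 36.1%, and the median difference at a locus was 5.38 points (interval 5.09 to 5.74). The share was higher with CF Im25 siRNA at 5285 loci (74.6%) and lower at 1784. Differences of at least 40 points with an interval that excluded 0 were 353 upward and 7 downward, and of at least 60 points 34 upward and 0 downward. Between the control libraries the 40-point counts were 1 and 3.

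**Figure D1:**
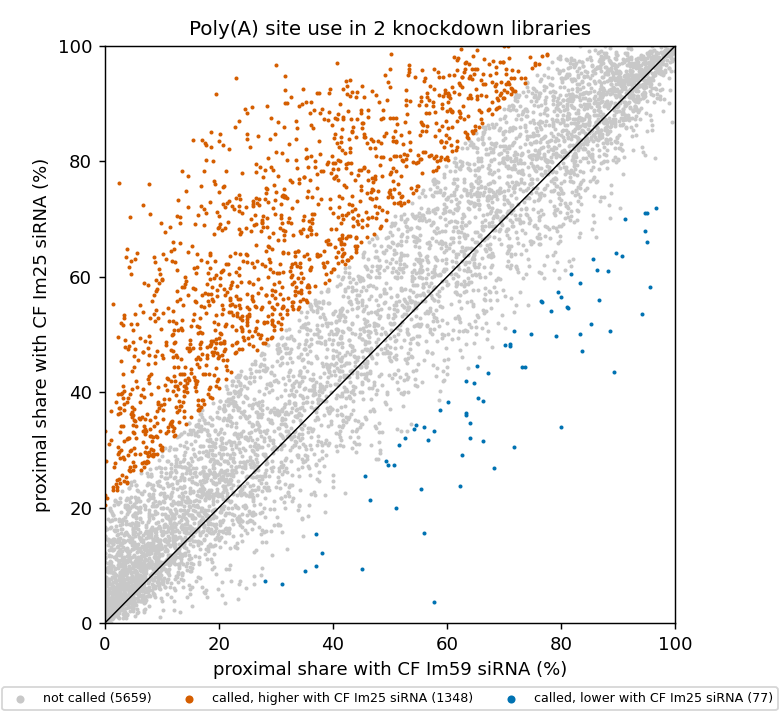
Proximal share (%) of the CF Im59 library on the x axis and of the CF Im25 library on the y axis, 1 point for each of 7084 loci, with the line of equal shares. The 1348 loci called higher with CF Im25 siRNA fill the area above the line, and the 77 called lower are scattered below it.

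At many loci the difference was large enough to change which site was the main one. The upstream site held most reads with CF Im25 siRNA and the downstream site with CF Im59 siRNA at 963 loci (13.6%), and the reverse was seen at 122 (1.72%). Of the 1348 loci called proximal, 739 (54.8%) changed their main site in this way. Between the control libraries the main site differed at 189 loci in one direction and 330 in the other (2.63% and 4.60% of the loci tested).

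Both sites of a called locus usually differed, in opposite directions. At the loci called proximal, reads at the upstream site were higher by a median log2 ratio of 1.46 with CF Im25 siRNA, and reads at the downstream site differed by -0.91 (0.5 reads added to each count). The sum of both sites differed by 0.18, with 0.07 over all loci tested. The upstream site was higher and the downstream site lower at 1208 of the 1348 loci (89.6%), both were higher at 103 and both lower at 37. At the 77 distal loci the medians were -0.71 and 1.18. These values come from the same counts that made the calls and describe them.

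At the loci called proximal, the median share of the CF Im59 library was close to that of the control libraries. It was 29.1% there, 29.4% in untreated cells and 33.0% with scrambled siRNA, while the CF Im25 library stood at 65.4%. With at least 50 reads in both controls, 1224 of these loci could be placed. The CF Im25 value lay above both controls at 1187 of them and the CF Im59 value between the controls at 325, below both at 569 and above both at 330. The median distance from the mean of the controls was 29.4 points for CF Im25 and -2.32 points for CF Im59 siRNA. At 60 distal loci placed likewise, the CF Im25 value lay below both controls at 52, with median distances of -22.3 and 3.45 points. The loci were chosen on the CF Im25 and CF Im59 values, so these distances are a description of the choice.

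The 12 loci with the largest rise among those with at least 100 reads in each library are called P1 to P12, in order. P1 lies on the plus strand of chromosome 6, with sites at 147706227 and 147711607. Its share was 76.2% in the CF Im25 library (192 of 252 reads) and 2.43% in the CF Im59 library (7 of 288 reads). Untreated cells had 7.19% and scrambled siRNA cells 11.3%. RNase I gave 95.9% for CF Im68 siRNA and 18.2% for its control, the latter from 22 reads. The CF Im25 and CF Im68 libraries stood high and the other 4 low, and the difference within the contrast was 73.8 points (interval 67.6 to 78.8). Of the reads at the P1 upstream site, summed over the 6 libraries, 96.1% lay at 1 nucleotide.

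P2 lies on the plus strand of chromosome 5 with sites at 78981154 and 78982466, 1312 nt apart, the closest pair of the 12. Its share was 91.7% in the CF Im25 library, 19.4% in the CF Im59 library, 25.4% in untreated and 13.9% in scrambled siRNA cells. RNase I gave 63.7% for CF Im68 siRNA and 8.82% for its control. The CF Im25 library was the highest of the 6 here, and the difference to the CF Im59 library was 72.3 points (interval 64.0 to 78.6). At P3, on the plus strand of chromosome 10 (65380730 against 65384336), the CF Im25 library had 94.5% of 655 reads and the CF Im59 library 22.9% of 397. The other values of P3 were 38.8% in untreated cells, 30.1% in scrambled siRNA cells, and 98.8% and 67.1% for CF Im68 siRNA and its RNase I control. The CF Im59 value was the lowest of the 6 at P3.

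At P6 the difference in site use came with fewer reads. P6 lies on the minus strand of chromosome 2, with sites at 44115640 and 44113363. The downstream site held 48 reads in the CF Im25 library against 850 in the CF Im59 library, and the upstream site 114 and 39. The share was therefore 70.4% against 4.39%, and the sum of both sites, scaled to the library, was 0.218 times its level in the CF Im59 library. Untreated and scrambled siRNA cells had 5.09% and 7.72%, and the RNase I libraries 98.5% with CF Im68 siRNA and 61.3% in its control. P6 was thus a mostly distal locus in 3 of the 4 alkaline libraries.

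P9, on the minus strand of chromosome 15 (58889390 against 58887595), had more reads in the CF Im25 library, with 4.04 times the scaled sum of the CF Im59 library. Its upstream site held 314 and 16 reads, and its downstream site 87 and 102. The share of P9 was 78.3% in the CF Im25 library and 89.8% in the CF Im68 library, and the other 4 libraries lay between 7.83% and 25.8%.

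At P11, on the plus strand of chromosome 8 (26228637 against 26230194), the control values were far apart. The share was 28.1% in untreated cells, 47.3% in scrambled siRNA cells and 96.7% in the scrambled siRNA library made with RNase I, where CF Im68 siRNA gave 99.4%. Within the contrast it was 89.2% against 24.7%, so the CF Im25 library was the highest and the CF Im59 library the lowest of the alkaline set.

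The other 6 had a minor upstream site in the CF Im59 library and a major one in the CF Im25 library. P4 and P5 lie on the plus strand of chromosome 6 (26523179 against 26525865, and 72011972 against 72018648), with 76.0% against 7.77% and 85.1% against 18.6%. P7, on the minus strand of chromosome 4 (77082607 against 77079894), had 72.4% against 6.64%, and P8, on the plus strand of chromosome 18 (12985718 against 12987527), 82.9% against 17.7%. P10, on the plus strand of chromosome 5 (50138170 against 50142352), had 84.8% against 20.2%, and P12, on the plus strand of chromosome 2 (182400331 against 182403406), 82.5% against 18.7%. Over all 12 the share was 70.4% to 94.5% in the CF Im25 library and 2.43% to 24.7% in the CF Im59 library. It was 5.09% to 38.8% in untreated cells and 7.72% to 47.3% in scrambled siRNA cells, so at every one of the 12 the CF Im25 library lay above the other alkaline libraries.

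The 8 loci with the largest fall under the same minimum of reads are called D1 to D8. D1 lies on the plus strand of chromosome 2, with sites at 178086110 and 178086899, in a unit of 10 sites. Its share was 3.72% in the CF Im25 library (30 of 806 reads) and 57.8% in the CF Im59 library (230 of 398 reads), a difference of -54.1 points (interval -58.9 to -48.9). Untreated and scrambled siRNA cells had 46.2% and 45.5%. RNase I gave 1.71% for CF Im68 siRNA and 53.2% for its control. The upstream site of D1 held few reads in the CF Im25 and CF Im68 libraries and about as many as the downstream site in the 3 control libraries.

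D2 lies on the plus strand of chromosome 16 (22095971 against 22098838), with 140 of 412 reads upstream in the CF Im25 library and 511 of 639 in the CF Im59 library. Its controls differed, at 61.0% in untreated and 74.8% in scrambled siRNA cells. D3, on the plus strand of chromosome 6 (46645926 against 46648068), had 43.5% in the CF Im25 library, against 89.2% in the CF Im59 library, 92.2% in untreated and 94.3% in scrambled siRNA cells. RNase I gave 31.2% for CF Im68 siRNA, from 48 reads, and 82.0% for its control. At D3 the CF Im25 library stood apart from the other 3 alkaline ones.

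D4 and D5 had a downstream site that held few reads in the controls and in the CF Im59 library. D4, on the plus strand of chromosome 12 (98929406 against 98931484), had a share of 53.6% in the CF Im25 library and 94.2% in the CF Im59 library. It was 97.6% in untreated and 97.4% in scrambled siRNA cells, and 83.5% for CF Im68 siRNA against 98.5% for its control. D5, on the minus strand of chromosome 12 (57392623 against 57388816), had 58.2% against 95.6%. The other 4 libraries of D5 lay at 97.9% or above, so there the CF Im25 library alone stood low. Its downstream site held 74 of 177 reads in the CF Im25 library and 0 of 54 in scrambled siRNA cells.

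At D6 both knockdown libraries lay outside the controls, on opposite sides. D6 is on the plus strand of chromosome 14 (60755271 against 60760068), and its share was 9.34% in the CF Im25 library and 45.1% in the CF Im59 library, with 29.7% in untreated and 25.7% in scrambled siRNA cells. Of the reads at its upstream site, summed over the 6 libraries, 97.0% lay at 1 nucleotide. Counted alike, the units of P1, P2, P4, P7, D1, D2 and D3 also held a site with at least 95% of its reads at 1 nucleotide. At P1 (upstream site) and P4 (downstream site) that site was part of the named pair, and at the others it was not. D7, on the minus strand of chromosome 6 (170107140 against 170104004), had 31.6% against 66.3%, with 63.5% and 61.9% in the alkaline controls. D8, on the minus strand of chromosome 5 (79853387 against 79850968), had 51.9% of 108 reads against 85.3% of 102, with an interval of -44.3 to -21.2 points. D8 had the fewest reads of the 8 loci in both libraries of the contrast.

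**Figure D2:**
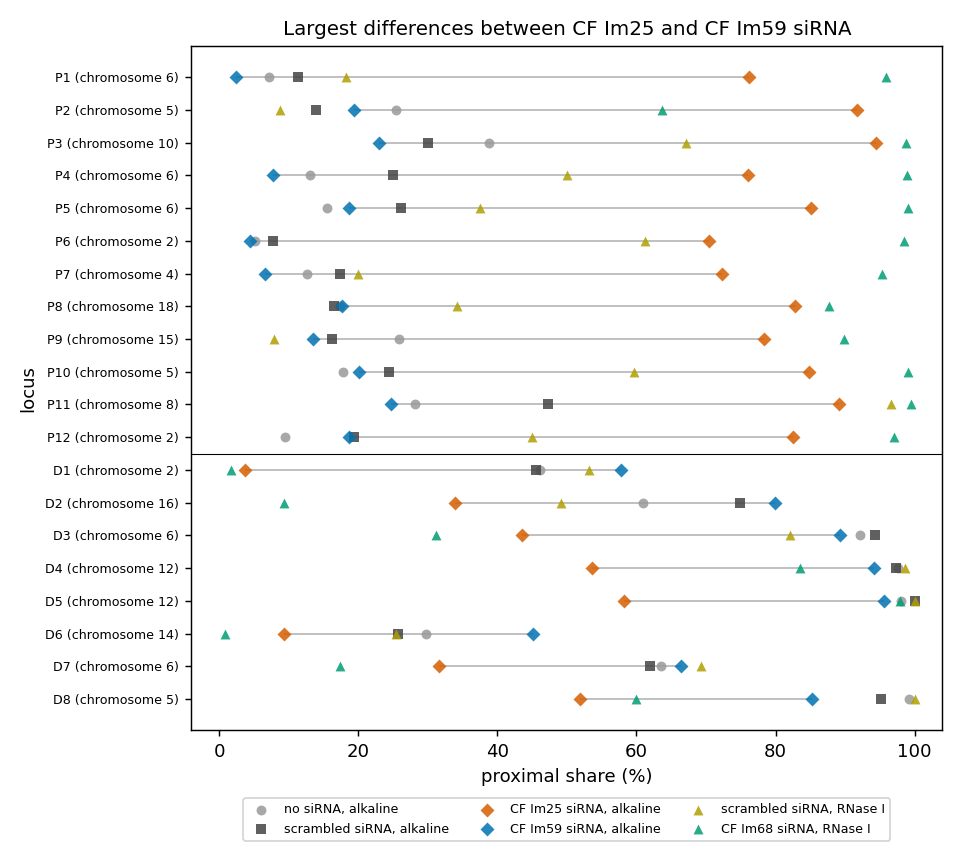
Proximal share (%) in each of the 6 libraries at the 12 loci with the largest rise (P1 to P12) and the 8 with the largest fall (D1 to D8) with CF Im25 against CF Im59 siRNA, 1 symbol per library, with a line joining those 2 libraries. At P1 to P12 the CF Im25 symbol lies between 70.4% and 94.5% and the CF Im59 symbol between 2.43% and 24.7%.

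The RNase I pair gives values from libraries outside the contrast. CF Im68 siRNA against its own scrambled control called 24.4% of 5291 loci proximal and 1.78% distal. Of the 1348 proximal loci, 920 could be tested there. Their share was higher with CF Im68 siRNA at 893 (97.1%), with a median difference of 29.6 points, and 597 were called proximal and 0 distal. Over the 4904 loci tested in both contrasts the median was 5.55 points, with 72.8% higher. The 597 shared calls are 64.9% of the 920 and 49.6% of the 1203 proximal calls of CF Im68 siRNA among these loci. Of the 77 distal loci 39 could be tested, 13 were called distal (33.3% of them, and 15.1% of the 86 distal calls of CF Im68 siRNA) and 0 proximal, and 4 of the 39 had a higher share with CF Im68 siRNA. Across the 4904 loci Pearson's r of the differences was 0.63 and Spearman's rho 0.59. The points share the site definitions, which pooled all 6 libraries, and the base composition of each locus, and loci are not replicates. At all 12 loci P1 to P12 the share was higher with CF Im68 siRNA than in its control, by 2.76 to 81.9 points, and at all 8 loci D1 to D8 it was lower, with differences from -52.0 to -2.10 points. Some of these rest on few reads: the RNase I control had 12 reads at P4 and 15 at P7, and D8 had 7 reads in the control and 5 with CF Im68 siRNA.

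Pairs further apart were called proximal more often, up to 2000 nt. Of pairs under 100 nt apart, 2.15% were called proximal (20 of 930). The percentage was 7.01% from 100 nt, 14.1% from 200 nt, 20.8% from 500 nt and 28.5% (400 of 1402) from 1000 to under 2000 nt. It was 24.3% from 2000 nt and 23.7% (interval 18.6 to 29.5) from 5000 nt. Between the control libraries proximal calls were 0.214% to 2.00% of the loci in these bins. Distal calls there were 0.702% to 1.80% of the loci below 1000 nt, 3.44% and 3.37% in the next bins and 8% (20 of 250, interval 4.95 to 12.1) from 5000 nt. Distal calls in the contrast were between 0.180% and 1.77% in every bin. The median distance was 1685 nt for proximal loci, 1785 nt for distal loci and 1091 nt for all 7084.

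**Figure D3:**
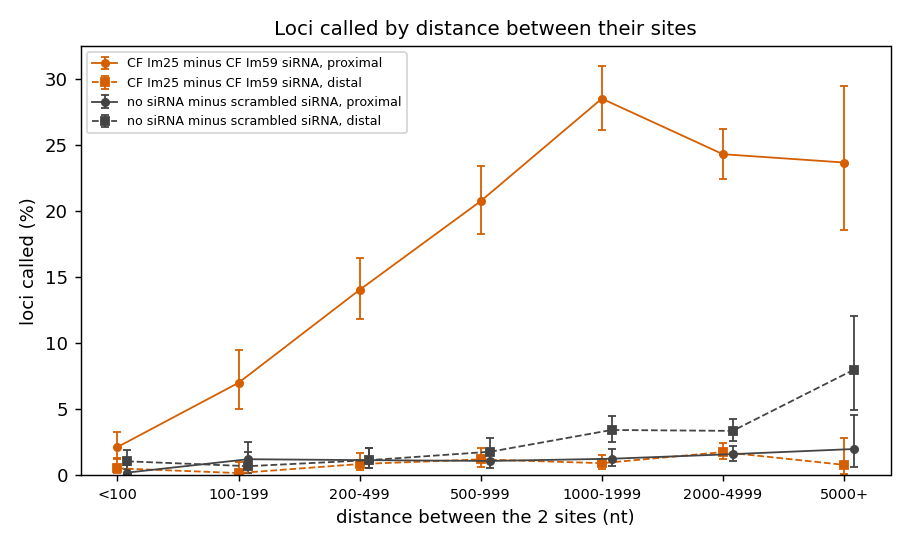
Percentage of loci called by the distance between their sites (nt), for CF Im25 minus CF Im59 siRNA and for untreated minus scrambled siRNA cells, with exact 95% binomial intervals over loci. Circles are proximal and squares distal calls: proximal calls in the contrast climb from 2.15% to 28.5% and end at 23.7%, and among the other 3 curves the highest point is 8%, for distal calls between the control libraries from 5000 nt.

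Loci of units with more sites were called more often. The percentage called proximal was 13.3% in units with 2 sites, 18.1% with 3, 24.8% with 4 or 5 and 28.2% from 6 sites. Distal calls were between 0.918% and 1.33% in these groups. By the share in untreated cells, a library outside the contrast, 18.8% of loci under 20%, 30.2% from 20 to 50%, 18.3% from 50 to 80% and 1.10% from 80% were called proximal. The last group has little room for a rise of 20 points. Distal calls were 1 of 2369 loci in the first group, which has little room for a fall of 20 points, 0.992% and 2.07% in the middle groups and 1.83% in the last.

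Within units of 3 sites the first and the last site differed in opposite directions. Over 2081 such units the first site held a mean of 30.9% of the reads in the CF Im25 library and 23.8% in the CF Im59 library, a mean difference of 7.17 points (median 3.41, interval 2.88 to 3.81). The middle site differed by 1.09 points on average (median 0.46). The last site held 35.3% and 43.5%, a mean difference of -8.25 points (median -4.53, interval -5.09 to -4.05). The first site was at least 20 points higher in 279 units and lower in 9, and the last site lower in 325 and higher in 16. Untreated against scrambled siRNA cells gave mean differences of -0.910, -0.893 and 1.80 points.

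Counted over every site of a unit, transcripts ended further upstream with CF Im25 siRNA. The mean end position was taken from the first site of the unit, in units of 2 or more sites with at least 50 reads in both libraries. In 8115 units the median difference was -53.4 nt (interval -58.4 to -49.3) and the mean -212 nt, and 76.5% of the units ended further upstream. The ends lay at least 500 nt further upstream in 1291 units and further downstream in 117 (15.9% and 1.44%), and at least 1000 nt in 527 and 31. Between untreated and scrambled siRNA cells the median was 6.67 nt, with 153 and 344 units past 500 nt. The median difference was -7.86 nt in units of 2 sites, -55.0 nt with 3 and -193 nt with 4 or more, whose median lengths from first to last site were 909, 2039 and 3797 nt.

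**Figure D4:**
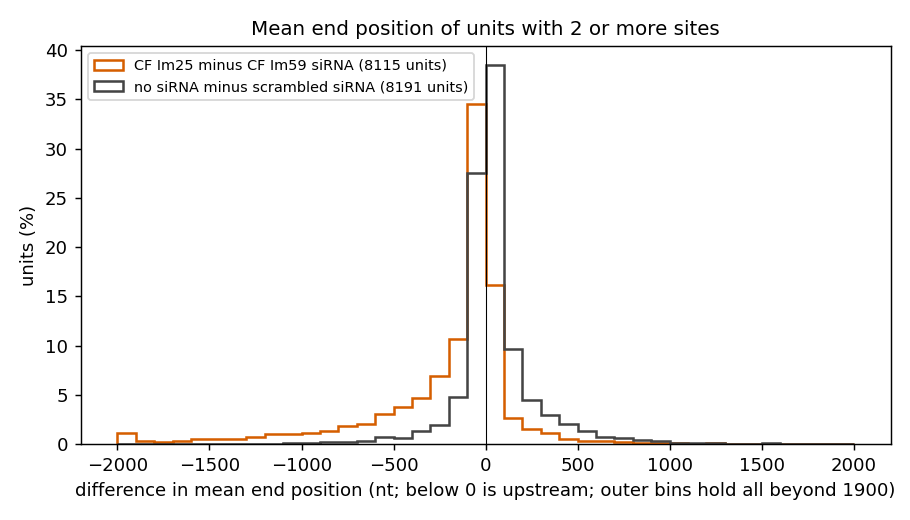
Distribution of the difference in mean end position (nt, negative is upstream) over units of 2 or more sites, as percent of units in bins of 100 nt, for CF Im25 minus CF Im59 siRNA and for untreated minus scrambled siRNA cells. The contrast has a long arm on the upstream side, with 15.9% of the units at least 500 nt upstream, against 1.87% between the control libraries.

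Where the cut was made inside a site hardly differed. Only ends within 25 nt of the local maximum belong to a site, so moves beyond that window could not show here. Over 9479 sites with at least 100 reads in both libraries, the mean end within the site differed by a median of -0.0036 nt, and by under 1 nt at 93.3% of the sites. It lay at least 3 nt downstream with CF Im25 siRNA at 9 sites (0.0949%) and upstream at 18 (0.190%). Untreated against scrambled siRNA cells gave 19 and 3 of 9822 sites (0.193% and 0.0305%). The largest moves of the mean end were at 6648706 on the minus strand of chromosome 12 (downstream by 4.6 nt), at 89983584 on the same strand (4.47 nt), at 66209838 on the plus strand of chromosome 14 (-5.12 nt) and at 8371433 on the plus strand of chromosome 17 (-4.50 nt). At each of these 4 sites the CF Im59 library lay outside the range of the untreated, scrambled and CF Im25 libraries, with 103 to 200 reads. The mean ends of the CF Im25 library at these sites were within 1 nt of at least 1 alkaline control. Of 21118 nuclear sites with at least 50 reads in either library, 1 had 0 reads in the CF Im59 library, and the reverse was seen at 0 sites.

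Chromosomes differed in how often their loci were called proximal. Of the 23 with at least 50 loci, chromosomes 16 (9.24%, interval 6.23 to 13.1), 19 (9.61%), 22 (10.0%) and 17 (12.3%) had the lowest percentages. Chromosomes 13 (28.7%, interval 21.6 to 36.6), 8 (26.3%) and 2 (25.9%) had the highest. The median distance between sites was 1291, 1588, 1098 and 1205 nt on chromosomes 16, 19, 22 and 17, and 1115, 1021 and 1130 nt on chromosomes 13, 8 and 2, so the ranges of both sets overlapped. On chromosome 19, 13 of 458 loci were called distal, beside 77 of 7084 in all.

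The 77 loci called distal, fewer than the 181 between the control libraries, more often held a pile of reads at a single nucleotide. A site with at least 95% of its reads at 1 nucleotide was part of 23 of the 77 pairs (29.9%), of 92 of the 1348 proximal pairs (6.82%) and of 16.6% of all pairs. For these percentages at 1 nucleotide the reads were summed over the 6 libraries. The distal calls also became rarer with depth. By reads in whichever library had fewer at the locus, they were 2.51% of loci with 50 to 99, 0.795% from 100, 0.442% from 300 and 0.318% (2 of 628) from 1000 reads. Proximal calls were 22.8%, 19.5%, 17.1% and 12.1% in the same groups, where the control libraries gave 2.98%, 0.817%, 0.441% and 0 of 669 loci. The distal calls of the control libraries were 5.53%, 2.10%, 0.993% and 0 of 669. Both directions thus had fewer calls at greater depth, in the contrast and between the controls.

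The total of each unit, relative to all reads in nuclear units, is given in CPM, the usual scaling of counts to library size. The call needed a ratio of at least 2-fold either way, 50 reads in 1 library and 1 outside its exact 95% interval. Of 15086 units, 908 (6.02%) were higher and 513 (3.40%) lower with CF Im25 siRNA, and differences of at least 4-fold were 137 and 53. Untreated against scrambled siRNA cells gave 4.29% higher and 4.30% lower of 16791 units, so the lower calls of the contrast were no more frequent than between the 2 libraries without a targeting siRNA. In such totals fewer cells with an RNA and less of it per cell cannot be told apart. Of the loci called proximal, 9.35% had a higher total and 3.12% a lower one, against 4.02% and 1.91% of all loci tested.

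The 5 units with the largest rise among those with at least 100 reads in 1 library are called T1 to T5, and the 5 with the largest fall T6 to T10. T1, at 19826022 on the plus strand of chromosome 12, had 136 reads with CF Im25 siRNA (14.1 CPM) and 4 with CF Im59 siRNA (0.347 CPM), 3 in untreated cells, 0 with scrambled siRNA in either method and 13 with CF Im68 siRNA. A count of 0 allows up to 3 reads, which is 0.346 CPM in the alkaline and 0.640 CPM in the RNase I library. The CF Im25 library stood alone at T1, 40.5-fold above CF Im59 (interval 15.5 to 151). T2, at 100481028 on the plus strand of chromosome 1, had 126 reads in the CF Im25 library and 0 to 10 in each of the other 5.

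T3, T4 and T5 lay at 46590747 to 46591425 on the minus strand of chromosome 12 and at 22087378 and 19127793 on the plus strand of chromosome 16. Their levels were 24.6, 21.5 and 21.9 CPM in the CF Im25 library and 2.17, 2.34 and 2.43 CPM in the CF Im59 library, ratios of 11.3, 9.18 and 9.03. The alkaline controls lay between 0.576 and 6.57 CPM. With CF Im68 siRNA they were 4.11, 11 and 15.5 CPM, against 1.28, 1.28 and 1.49 CPM in its control. T2 to T5 lay 5156 to 8453 nt upstream of the next unit on their strand, and the totals of those next units were 0.774 to 0.996 times their level with CF Im59 siRNA. The unit after T4 is the one that holds D2.

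Units higher with CF Im25 siRNA more often had another unit close downstream. Of the 908 units, 179 (19.7%, interval 17.2 to 22.5) had one within 10 kb on the same strand, against 12.1% (interval 9.39 to 15.2) of the lower ones and 13.7% of all tested. Units called between the control libraries differed too: 17.9% of the units higher with scrambled siRNA and 9.71% of those higher in untreated cells had such a neighbour. Among 5465 pairs of neighbouring units within 100 kb, the upstream one was called higher and the downstream one lower in 29, and the reverse was seen in 12. Both were higher in 19 of these pairs and both lower in 14. Between the control libraries, over 6575 pairs, the counts were 12 and 6 in opposite directions and 25 and 21 in the same direction.

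T9, the unit with the most sites among the 10, lies on the minus strand of chromosome 16 from 56463065 to 56466544. Its gene was not looked up, so whether T9 belongs to the transcript of a siRNA target was not tested. It held 75 reads in the CF Im25 library (7.75 CPM) and 1077 in the CF Im59 library (93.4 CPM), a 12-fold fall (interval 9.53 to 15.4). Untreated cells had 108 CPM and scrambled siRNA cells 86.9 CPM, and RNase I gave 3303 reads for CF Im68 siRNA and 757 (161 CPM) for its control. By the total of the unit, the CF Im25 library was the single low one of the 6. Each of the 6 sites of T9 was lower in it than in the CF Im59 library, by 3.84-fold to 16-fold. The site most used in the alkaline libraries, at 56466334, had 39 reads in the CF Im25 library, 744 in the CF Im59 library, and 75 and 15 in the RNase I libraries with CF Im68 siRNA and its control, so at that site the RNase I libraries were low as well.

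The other falls were units of a single site. T10, at 185773314 on the plus strand of chromosome 3, held 1.76 CPM in the CF Im25 library and 30.9 CPM in the CF Im59 library, a 17.6-fold fall (interval 10.8 to 30.5). It held 52.8 CPM in untreated and 57.6 CPM in scrambled siRNA cells, and RNase I gave 0.730 CPM for CF Im68 siRNA and 3.63 CPM for its control. Of the T10 reads, summed over the 6 libraries, 96.0% lay at 1 nucleotide. T8, at 83266030 on the minus strand of chromosome 4, T7, at 53889616 on the minus strand of chromosome 2, and T6, at 118031784 on the plus strand of chromosome 6, had 14, 14 and 12 reads in the CF Im25 library and 173, 135 and 106 in the CF Im59 library. T6 was also low with CF Im68 siRNA, at 0.730 CPM against 15.8 CPM in its control, while T7 and T8 had at most 9 reads in either RNase I library. All of T6 to T10 were lower in the CF Im25 library than in either alkaline control.

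**Figure D5:**
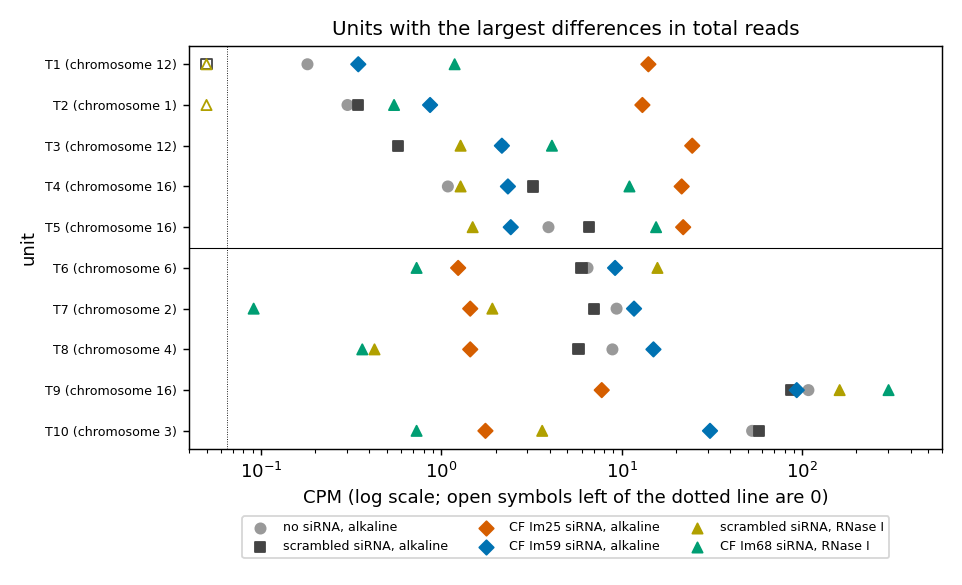
Total reads (CPM, log axis) in each of the 6 libraries at the 5 units with the largest rise (T1 to T5) and the 5 with the largest fall (T6 to T10) with CF Im25 against CF Im59 siRNA, 1 symbol per library. At T9 the CF Im25 library lies at 7.75 CPM and the other 5 libraries at 86.9 CPM or above.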

How the data were processed

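Reads were counted at the 3' ends of poly(A) RNA in 6 A-seq libraries, 1 per group, of which the CF Im25 and CF Im59 siRNA libraries form the contrast. The authors' deposited files give raw counts: whole numbers of read ends for each nucleotide and strand, 1 file per library. The builds hg19 and GRCh37 are named in the submitters' processing notes. Which aligner was used, and whether duplicate or internally primed reads were removed, is not given in the sources used here. Repeated PCR copies of a molecule would make the intervals too narrow. Library totals were 5351980 to 18183644 reads.

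From these counts, sites were called once over the 6 libraries pooled at equal weight (25 nt on either side of the highest position, mean of at least 1 CPM), which gave 49695 nuclear sites in 28114 units and 8999 pairs of sites with at least 5% of their unit each, averaged over the libraries. Sites held 91.5% to 92.7% of the reads of each library. Shares, Newcombe intervals and exact intervals were computed with Python 3.11.15, numpy 2.4.6, pandas 2.3.3 and scipy 1.17.1, and TMM scaling with edgeR 4.0.16. The rules were tested on simulated data. No p-value was computed, since each group held 1 library. Named loci were the 12 largest rises and 8 largest falls in share, the 5 largest rises and falls in totals and the 2 largest moves in each direction in cleavage position. The rules and lists were chosen with earlier results of these data known. Genome sequence and annotation of the build of the files were not used here, so no site sequence is printed. The alternatives tried changed minimum reads, thresholds, site and unit definitions, pair choice, scaling and depth. The gap between units was changed for site use only, not for totals.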

Additional observations from a re-analysis of the deposited data

How the results depend on the processing

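Of 87 values recomputed for the counts, medians and percentages, 55 stayed close to the reported value, 32 moved and 0 reversed. Counts and percentages carry no sign, so they could not be labelled reversed, and the 0 says nothing about them. The median difference at 10 or 30 points equals the reported one by construction. Close was a broad label for counts: with a minimum of 20 reads, 1701 proximal loci beside 1348 had it. Fewer reads or a lower threshold admit more calls by construction, and for the other settings the cause was not tested. With a minimum of 20 or 100 reads the distal calls numbered 162 or 33. At 10 points 2454 loci were proximal and 255 distal, and at 30 points 724 and 20. Distal calls were 37 with sites of at least 3 CPM, 51 with the first and last site of a unit and 46 without units that hold a single-nucleotide pile. The median difference was 3.35 points with ends joined within 10 nt, 6.83 with sites of at least 3 CPM, 5.03 with unit gaps of at most 10 kb, 6.17 with the first and last site and 6.44 without piles. With the pair chosen in the untreated and scrambled libraries alone, 1188 of 6459 loci were proximal (18.4%) and 67 distal. The last of 3 sites had a median of -3.94 points with at least 100 reads.

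Units higher and lower numbered 1801 and 1099 with at least 20 reads, 2114 and 1245 with no minimum, 491 and 280 with at least 100 reads, and 2248 and 1364 at 1.5-fold. Of the called units 63.9% were higher, 57.0% with TMM scaling, 56.9% with median of ratios scaling and 67.9% with the libraries thinned to the smaller total. Sites moved downstream or upstream by at least 3 nt were 38 and 57 with at least 50 reads, 0 and 8 with at least 200 reads and 0 and 0 with ends within 10 nt. TMM scaling shifted the log2 ratios by -0.08. P1 to P12, D1 to D8 and T1 to T10 kept their calls in the 122, 72 and 79 alternatives in which the same sites or unit could be formed. They were picked as the largest differences with at least 100 reads, so the changed minimum reads and thresholds could not undo a call. Settings in which the same sites or unit could not be formed are left out of these numbers, so they are no measure of robustness. No paired analysis was possible because each group held 1 library, and for the same reason no replicate could be left out.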
